A study of Mus musculus with 11 samples.

Results

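The genes described here load peptides onto MHC class I molecules in pancreatic beta cells. They are 8 of the 55487 genes in the tables, chosen by symbol: 5 dedicated loading genes (Tap1, Tap2, Tapbp, Tapbpl and Erap1) and 3 general chaperones of the endoplasmic reticulum (ER) that also serve class I (Calr, Canx and Pdia3). All 8 passed the filter on low counts and were tested. The 5 loading genes were higher in PD-L1high cells than in control cells, by 2.09-fold (Erap1) to 10.6-fold (Tap1), while the 3 chaperones stayed within 1.10-fold to 1.14-fold of control and did not pass the test. In PD-L1low cells, sorted from the same treated islets, only Tap1 of the 8 passed the test against control.

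Islets of 12-week-old male C57BL/6JRj mice, with no engineered allele in any group, were cultured for 20 h. PD-L1high cells (4 libraries) and PD-L1low cells (3 libraries) were sorted from islets given 50 pg/mL of IFNγ, and control cells (4 libraries) from islets that received none. All groups were beta cells, sorted as EpCam+, CD24low and CD71+ after removal of cells with blood and endothelial surface markers. RNA-seq was done on each sorted population, and replicate 1 has no PD-L1low library. PD-L1 is the surface protein encoded by Cd274, so the separation of the IFNγ-treated cells is itself a readout of their response to IFNγ. The sources used here do not say how many mice a library pools, and p-values therefore measure the spread between these libraries.

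MHC class I molecules show short peptides from the cell interior to CD8 T cells, which destroy beta cells in type 1 diabetes. The proteasome and cytosolic peptidases cut proteins into peptides, the TAP transporter, a heterodimer of the Tap1 and Tap2 proteins, moves the peptides into the ER, and the peptidase Erap1 trims them there. Tapasin, the Tapbp protein, tethers an empty class I molecule to TAP within the peptide loading complex, together with calreticulin (Calr) and the oxidoreductase ERp57 (Pdia3), and Tapbpl (TAPBPR) edits the bound peptides outside that complex. Calnexin (Canx) binds newly made class I heavy chains, and all 3 chaperones also fold a wide range of other secreted and membrane glycoproteins. Class I genes respond to IFNγ through factors that include IRF1 and the transactivator NLRC5.

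The libraries held 10422018 to 14742192 counts in PD-L1high cells, 11826335 to 14725088 in PD-L1low cells and 10965887 to 15810769 in control cells. Control replicate 1 stood apart, with the largest share of mitochondrial counts (13.3%, in a range of 5.55% to 13.3% over all libraries) and the lowest level of each of the 3 chaperones. Among control libraries it was the highest for Tap1, the class I light chain B2m, Irf1 and Nlrc5. It was the lowest for Tapbp, Tapbpl, Erap1 and the class I heavy chains H2-K1 and H2-D1. For some genes, but not for every value that this library moves, results are given without it too. The 7 beta cell markers were abundant in every library and summed to 134731 to 208976 TPM (RSEM's length- and depth-scaled transcript level) in PD-L1high cells, 124251 to 165876 in PD-L1low cells and 78735 to 214737 in control cells. Cd274 itself, the gene behind the sort, had 205, 279, 213 and 172 CPM (counts scaled for depth) in PD-L1high cells. It had 47.0, 30.5 and 36.9 CPM in PD-L1low cells and 25.1, 20.9, 15.1 and 20.3 CPM in control cells. Tfrc, which encodes the gate marker CD71, had 305 to 392 CPM in PD-L1high cells. It had 160 to 210 CPM in PD-L1low cells and 223 to 272 CPM in control cells. Tfrc was called higher in PD-L1high than in PD-L1low cells (log2 fold change 0.80), a call lost under 6 of 28 alternatives. The 8 immune markers summed to 4.03 to 6.47 TPM in PD-L1high cells, 2.04 to 4.28 in PD-L1low cells and 2.80 to 4.48 in control cells, with 4 of the 8 at 0 in every PD-L1high and every control library and 5 in every PD-L1low library. The PP cell hormones Ppy and Pyy were present in these sorted cells and summed to 934 to 2242 TPM in PD-L1high cells, 79.3 to 118 in PD-L1low cells and 389.9 to 1345 in control cells. Both passed the test as higher in PD-L1high than in PD-L1low cells and as lower in PD-L1low than in control cells, and Ppy was also called higher in PD-L1high than in control cells. Higher in PD-L1high than in PD-L1low cells were likewise Gcg and Sst, the alpha and delta cell hormones. The 4 alpha cell markers summed to 622 to 1734 TPM in PD-L1high cells, 216 to 285 in PD-L1low cells and 199.7 to 1379 in control cells. Their part in the results on the loading genes was not tested.

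The promoters are shown first as the sequences in which motifs of the interferon and ER stress responses were searched. RefSeq start sites on GRCm38.p6 were given for 6 of the 8 genes, all but the loading genes Tap2 and Tapbpl. Each window runs from 250 bases before the start to 50 bases after it. Searched on both strands were the interferon-stimulated response element (GAAA and GAAA with 2 bases of any kind between them), which IRF factors bind, and the gamma-activated site (TTC and GAA with 3 bases between them). The CCAAT box (CCAAT) and the ER stress element (CCAAT and CCACG with 9 bases between them), which contains a CCAAT box, were searched in the same way. Below are the windows of Tap1 (chr17:34187306-34187605, plus strand), Erap1 (chr13:74639603-74639902, plus strand), Calr (chr8:84846882-84847181, minus strand) and Canx (chr11:50325624-50325923, minus strand), each 5′ to 3′ on the strand of the gene, with capitals marking every match.
Tap1: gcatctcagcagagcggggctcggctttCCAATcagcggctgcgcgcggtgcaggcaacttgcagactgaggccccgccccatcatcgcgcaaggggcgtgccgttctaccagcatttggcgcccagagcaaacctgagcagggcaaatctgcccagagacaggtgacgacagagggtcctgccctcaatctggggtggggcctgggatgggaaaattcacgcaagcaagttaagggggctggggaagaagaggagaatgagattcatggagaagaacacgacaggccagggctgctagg
Erap1: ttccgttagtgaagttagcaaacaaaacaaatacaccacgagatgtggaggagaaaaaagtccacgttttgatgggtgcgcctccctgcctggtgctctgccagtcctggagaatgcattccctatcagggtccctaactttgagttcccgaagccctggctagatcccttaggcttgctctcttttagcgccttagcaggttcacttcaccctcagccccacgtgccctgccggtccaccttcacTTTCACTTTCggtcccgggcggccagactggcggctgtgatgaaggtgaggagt
Calr: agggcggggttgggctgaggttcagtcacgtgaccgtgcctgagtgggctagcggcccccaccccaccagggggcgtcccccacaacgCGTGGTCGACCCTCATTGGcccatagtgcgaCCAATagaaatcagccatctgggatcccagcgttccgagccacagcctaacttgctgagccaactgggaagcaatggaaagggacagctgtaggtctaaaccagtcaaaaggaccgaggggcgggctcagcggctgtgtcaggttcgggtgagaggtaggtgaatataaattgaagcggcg
Canx: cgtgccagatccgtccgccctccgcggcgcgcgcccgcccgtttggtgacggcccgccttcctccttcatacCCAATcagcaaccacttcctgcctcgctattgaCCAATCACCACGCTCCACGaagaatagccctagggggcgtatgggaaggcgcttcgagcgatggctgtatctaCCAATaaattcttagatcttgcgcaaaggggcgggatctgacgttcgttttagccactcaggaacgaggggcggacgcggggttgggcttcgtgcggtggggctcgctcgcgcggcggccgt

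Erap1 carried the only interferon-stimulated response element among these 6 windows, on the reverse strand and across the start itself, as TTTCACTTTC from base -4 to base 5 counted with the start as 0. Such a match was found in 3.43% of the 32817 RefSeq mouse promoter windows of the same length. The ER stress element, which is known from the promoters of ER chaperones, was present in Calr on the reverse strand from -162 to -144 and in Canx on the forward strand from -145 to -127, and in 0.119% of all windows. It begins with a CCAAT box, a general promoter motif present in 37.4% of windows and in 5 of these 6, all but Erap1. Tap1, Tapbp and Pdia3 carried CCAAT boxes and no other full motif, so the matches did not separate the loading genes that have a window from the chaperones. Pdia3 had 2 CCAAT boxes, starting at -79 and -29, and no full ER stress element. The gamma-activated site, known from IFNγ-induced promoters, was present in 8.29% of all windows and in none of the 6. A match is a string of letters and not a measured binding site, and no match says only that the letters are not in this window.

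The Tap1 window is also most of the promoter of a neighbour. Psmb9, which encodes an immunoproteasome subunit, is read from the opposite strand with a RefSeq start 226 bases away, and 275 bases of the 300 are common to both windows. In the Tapbp window, whose RefSeq start lies inside the longer GENCODE gene, the only matches were 2 reverse CCAAT boxes.

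**Figure D1:**
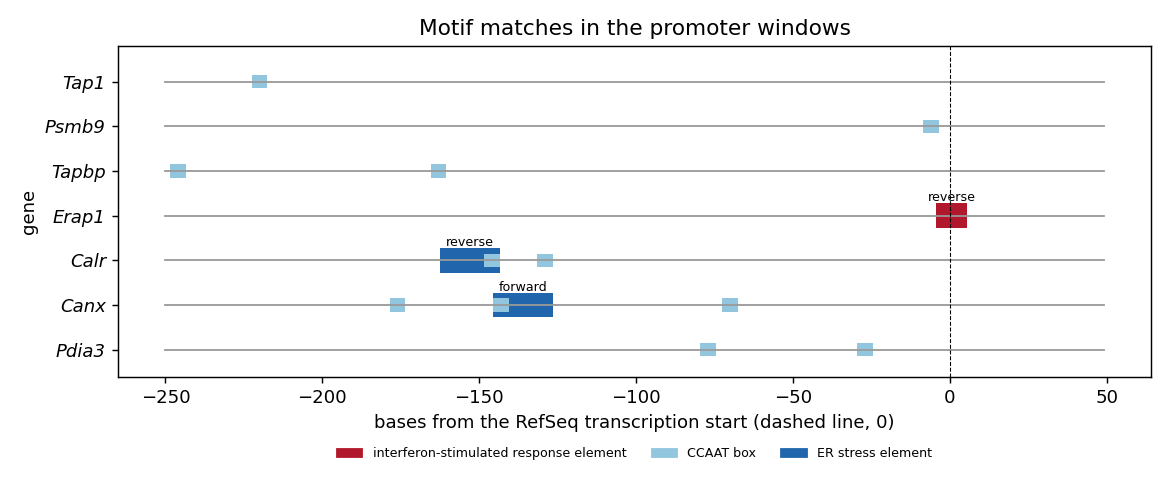
Motif matches in the RefSeq promoter windows of 6 of the genes and of Psmb9, by distance in bases from the transcription start (dashed line), with the gene on the vertical axis. Boxes are matches to the interferon-stimulated response element (red), the CCAAT box (light blue) and the ER stress element (dark blue), which was found in Calr and Canx, while the interferon-stimulated response element was found across the start of Erap1.

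Compared per transcript length, the chaperones were the most abundant of the 8 genes. In TPM, a unit the authors' quantification divides by effective transcript length, Pdia3 averaged 393 ± 26.3 in PD-L1high cells, 354 ± 25.2 in PD-L1low cells and 336 ± 104 in control cells (SD, n = 4, 3 and 4) and ranked first of the 8 in all 11 libraries. Calr and Canx followed at close levels and changed places between libraries, so that their order does not exceed their spread. Tapbp was the most abundant loading gene, at 243 ± 57.0 TPM in PD-L1high cells, 89.4 ± 28.6 in PD-L1low cells and 82.3 ± 14.4 in control cells, and in PD-L1high replicate 1 it exceeded both Calr and Canx. Erap1 ranked 5 of 8 in every library. The lowest ranks changed with the group: Tap1 ranked 6 of 8 in all 4 PD-L1high libraries, 7 in all 3 PD-L1low libraries, and 7 or 8 in control libraries.

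The TAP transporter genes lie next to each other in the MHC region of chromosome 17, with the immunoproteasome subunit gene Psmb8 between them. Tap1 (ENSMUSG00000037321, plus strand, bases 34187553 to 34197225 on GRCm38, GENCODE M21 here and below) had 122, 144, 119.6 and 102 CPM in PD-L1high replicates 1 to 4, against 37.5, 32.7 and 25.8 CPM in PD-L1low replicates 2 to 4 and 16.6, 10.1, 9.48 and 10.3 CPM in control replicates 1 to 4. CPM divides the counts by the TMM-scaled library size and serves to compare a gene between libraries. The 3 groups did not overlap, and control replicate 1 lay above the other 3 control libraries. In PD-L1high cells the log2 fold change over control was 3.41 (SE 0.16, 95% interval 3.08 to 3.74, adjusted p = 3.63e-09 by edgeR's quasi-likelihood test with Benjamini-Hochberg adjustment over 16252 genes), and the level was higher in 4 of 4 replicates. Without control replicate 1 the log2 fold change was 3.60.

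Tap2 (ENSMUSG00000024339, plus strand, bases 34203527 to 34216321) had 50.9, 54.8, 50.6 and 29.1 CPM in PD-L1high cells, against 18.9, 19.8 and 15.2 CPM in PD-L1low cells and 15.9, 14.2, 14.2 and 8.06 CPM in control cells. PD-L1high replicate 4 was far below the other 3 but still above every library of the other groups, and PD-L1low and control cells overlapped. The log2 fold change of PD-L1high over control cells was 1.82 (SE 0.15, 95% interval 1.51 to 2.14, adjusted p = 1.70e-06), which is a 3.54-fold difference. The intervals of the partner subunits did not overlap, at 8.44-fold to 13.4-fold for Tap1 and 2.85-fold to 4.40-fold for Tap2, though a difference between genes was not itself tested. In every replicate the CPM ratio of PD-L1high to control cells was larger for Tap1, at 7.37, 14.2, 12.6 and 9.89 in replicates 1 to 4, than for Tap2, at 3.20, 3.86, 3.56 and 3.61. The replicate numbers did not consistently pair PD-L1high with control libraries, so these ratios are a description and not matched measurements.

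The tapasin gene and its relative changed by similar amounts. Tapbp (ENSMUSG00000024308, chromosome 17, plus strand, bases 33915899 to 33929292) had 608, 542, 493 and 536 CPM in PD-L1high cells, against 239, 230.4 and 176 CPM in PD-L1low cells and 179.6, 207, 183 and 213 CPM in control cells. PD-L1high libraries lay above all others, and PD-L1low and control libraries were intermingled. The log2 fold change of PD-L1high over control cells was 1.48 (SE 0.12, adjusted p = 2.31e-06). Tapbp shares bases with Zbtb22 on the same strand, so that some reads cannot be assigned for certain. Zbtb22 had 86 to 180 counts per library where Tapbp had 2316 to 9447. These counts already contain RSEM's division of the shared reads, so they do not show how many were shared.

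Tapbpl (ENSMUSG00000038213, chromosome 6, minus strand, bases 125223933 to 125231860) had 85.9, 79.2, 86.2 and 62.0 CPM in PD-L1high cells, against 33.9, 39.9 and 28.6 CPM in PD-L1low cells and 19.2, 32.4, 29.8 and 34.1 CPM in control cells. It too was higher in each PD-L1high library than in any other, with the lowest value in control replicate 1. The log2 fold change of PD-L1high over control cells was 1.45 (SE 0.17, adjusted p = 1.37e-04), and 1.22 without control replicate 1. Outside the MHC region, this gene moved about as far as Tapbp, with 95% intervals of 1.09 to 1.81 for Tapbpl and 1.22 to 1.74 for Tapbp on the log2 scale.

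Erap1, the ER peptidase, had the smallest change of the 5 in PD-L1high over control cells. Erap1 (ENSMUSG00000021583, chromosome 13, plus strand, bases 74639568 to 74693201) had 317, 312, 296 and 314 CPM in PD-L1high cells, against 172, 181 and 173 CPM in PD-L1low cells and 136, 165, 138 and 155 CPM in control cells. The 3 groups did not overlap, and the PD-L1high libraries lay close together. The log2 fold change of PD-L1high over control cells was 1.07 (SE 0.10, 95% interval 0.85 to 1.28, adjusted p = 1.12e-05). The effective transcript length that RSEM assigned to Erap1 differed between libraries. It ran from 3477 to 4418 bases in PD-L1high cells, 3057 to 4158 in PD-L1low cells and 2642 to 5317 in control cells. The TPM of Erap1 varied more than its CPM, at 82.2 ± 18.4 TPM and 310 ± 9.3 CPM in PD-L1high cells. In control cells these were 33.5 ± 14.6 TPM and 148 ± 13.7 CPM. Tapbp, with a steadier length (2190 to 2324 bases), also varied more in TPM (243 ± 57.0) than in CPM (545 ± 47.7) in PD-L1high cells. The part of effective length in these spreads was not tested.

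In all, 5 of the 8 genes were called higher in PD-L1high than in control cells and 0 were called lower, where 0.941% of all tested genes were called higher. The calls were the 5 loading genes, whose log2 fold changes had a median of 1.48, beside a median of -0.02 over all genes tested. These 5 also did not overlap between PD-L1high and control libraries, as did 2.68% of all genes in that direction.

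**Figure D2:**
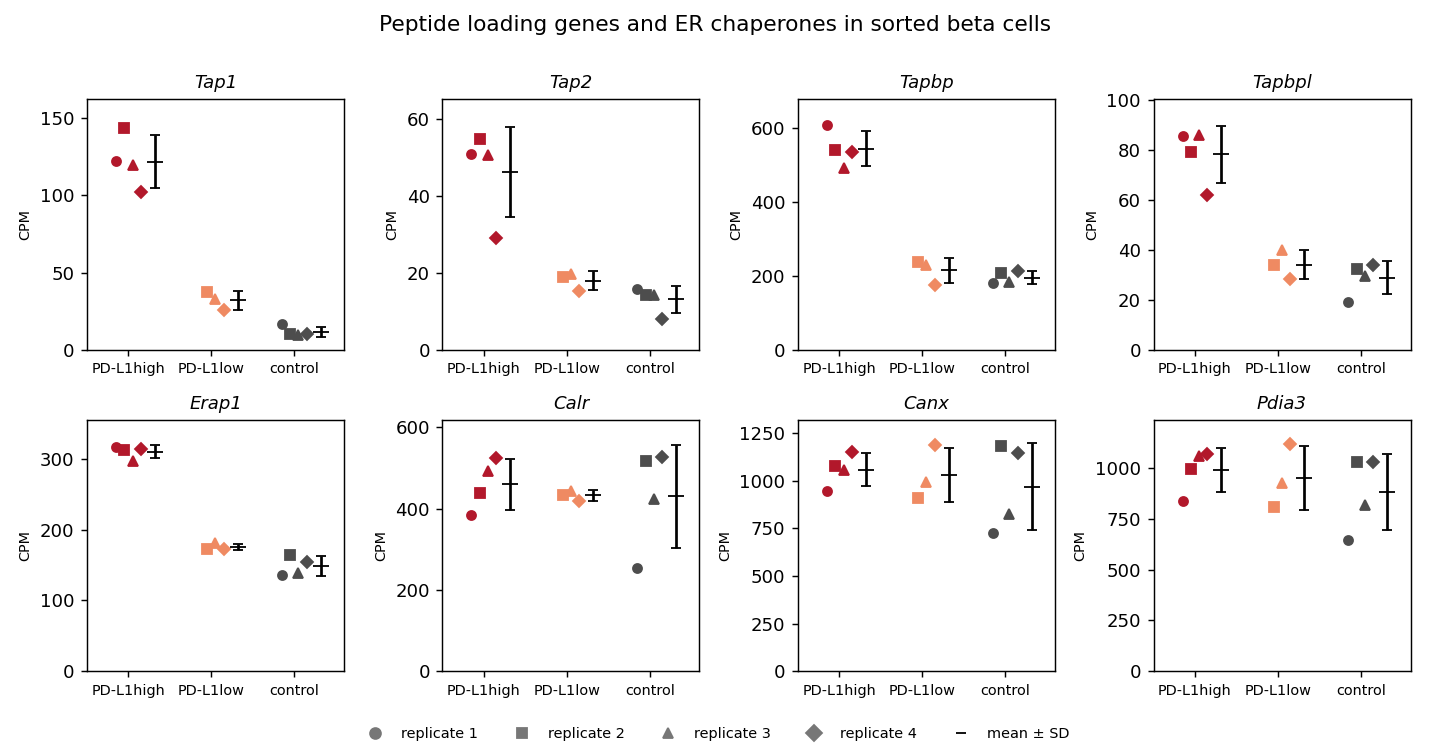
CPM of the 8 genes (vertical axes, from 0) in PD-L1high, PD-L1low and control libraries, 1 symbol per replicate number, with the mean and SD of each group beside the points. The loading genes Tap1, Tap2, Tapbp, Tapbpl and Erap1 were highest in PD-L1high cells with no overlap, while Calr, Canx and Pdia3 overlapped between all groups.

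The 3 chaperones did not follow. Calr (ENSMUSG00000003814, chromosome 8, minus strand, bases 84841850 to 84846934), a calcium-binding lectin, had 384, 437, 492 and 525 CPM in PD-L1high cells, against 434, 445 and 419 CPM in PD-L1low cells and 253, 519, 423 and 526 CPM in control cells. All 3 groups overlapped, and control replicate 1 was the lowest library. The log2 fold change of PD-L1high over control cells was 0.14 (SE 0.13, 95% interval -0.13 to 0.41, adjusted p = 0.829).

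Canx (ENSMUSG00000020368, chromosome 11, minus strand, bases 50293961 to 50325673), the membrane-bound relative of calreticulin, had 946, 1077, 1057 and 1153 CPM in PD-L1high cells, against 909, 993 and 1185 CPM in PD-L1low cells and 726, 1183, 826 and 1143 CPM in control cells. The groups overlapped, and the log2 fold change of PD-L1high over control cells was 0.15 (SE 0.12, 95% interval -0.11 to 0.41, adjusted p = 0.805). Pdia3 (ENSMUSG00000027248, chromosome 2, plus strand, bases 121413775 to 121438687), the disulphide isomerase ERp57, had 838, 997, 1059 and 1073 CPM in PD-L1high cells, against 809, 927 and 1123 CPM in PD-L1low cells and 645, 1032, 822 and 1033 CPM in control cells. Its groups overlapped too, with a log2 fold change of 0.18 (SE 0.12, 95% interval -0.06 to 0.43, adjusted p = 0.762).

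These intervals bound the chaperones in PD-L1high cells to at most 1.33-fold (Calr and Canx) or 1.35-fold (Pdia3) of control, below the lower bound of 1.81-fold for Erap1, the loading gene with the smallest change. Of the 3 chaperones, 0 were called in any of the 3 comparisons by edgeR, DESeq2 or limma-voom, and 0 had an unadjusted p under 0.05 in edgeR. Single libraries moved these values: without control replicate 1 the log2 fold changes were -0.01 for Calr, 0.07 for Canx and 0.12 for Pdia3, and without control replicate 2 they were 0.25, 0.29 and 0.31 in that order.

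In PD-L1low cells, which were exposed to the same IFNγ, 1 of the 5 loading genes passed the test against control, and the other 4 had smaller differences. Tap1 was 2.95-fold higher than in control cells (log2 fold change 1.56, SE 0.17, 95% interval 1.20 to 1.92, adjusted p = 4.21e-04), in 3 of 3 replicates. Thus 1 of the 8 genes was called higher and 0 lower, where 0.0615% of all genes were called higher. The loading genes that did not pass had log2 fold changes of 0.57 for Tap2, 0.23 for Erap1, 0.19 for Tapbpl and 0.14 for Tapbp. Tap2 was higher in 3 of 3 replicates, with a 95% interval of 0.23 to 0.92 (edgeR, unadjusted p = 0.00318, adjusted p = 0.978). Replicate numbers did not consistently pair PD-L1low with control libraries, so the replicate counts for Tap1 and Tap2 are a description. Erap1 had an unadjusted p of 0.0535, and the adjusted p was 0.99983 for Erap1, Tapbpl and Tapbp. Erap1 was nonetheless above every control library in each PD-L1low library, as was Tap1, where 1.28% of all genes did not overlap in that direction. The median of the 5 was 0.23, beside 0.00037 over all genes.

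The chaperones in PD-L1low cells had log2 fold changes over control of -0.10 for Calr (95% interval -0.40 to 0.20), 0.01 for Canx (-0.27 to 0.30) and 0.01 for Pdia3 (-0.26 to 0.29). The sign of each of these values turned under some settings. In sorted bulk samples, a smaller share of responding cells and less RNA per responding cell cannot be told apart.

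Between the populations from the same treated islets, 5 of the 8 genes were again called higher in PD-L1high than in PD-L1low cells and 0 lower, where 0.64% of all tested genes were called higher. The calls were the 5 loading genes. Their log2 fold changes were 1.85 for Tap1 (SE 0.16, adjusted p = 1.32e-05), 1.34 for Tapbp (SE 0.14, adjusted p = 6.87e-05), 1.27 for Tapbpl (SE 0.19, adjusted p = 0.00269), 1.25 for Tap2 (SE 0.16, adjusted p = 6.72e-04) and 0.83 for Erap1 (SE 0.11, adjusted p = 9.57e-04). Each was higher in 3 of 3 replicates with both populations and did not overlap between the groups, as did 4.41% of all genes. Tap1 was 3.61-fold higher in PD-L1high than in PD-L1low cells and 2.95-fold higher in PD-L1low than in control cells, whereas Tapbp stood at 2.52-fold and 1.10-fold in these comparisons.

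The chaperone differences between PD-L1high and PD-L1low cells were 0.24 for Calr (95% interval -0.07 to 0.55, adjusted p = 0.691), 0.13 for Canx (-0.16 to 0.43, adjusted p = 0.843) and 0.17 for Pdia3 (-0.11 to 0.45, adjusted p = 0.771) on the log2 scale. On log2(TPM + 1), the Erap1 call between PD-L1high and PD-L1low cells was lost under limma (log2 fold change 0.77, adjusted p = 0.554). Over all alternatives its adjusted p was at most 0.585. The reason for the loss was not tested. Without the libraries of replicate 2, the Tapbpl call was also lost (log2 fold change 1.28, adjusted p = 0.0668). With limma on log2(TPM + 0.1), the Tap2, Tapbpl and Erap1 calls were lost (adjusted p = 0.0532, 0.0710 and 0.585 in that order).

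**Figure D3:**
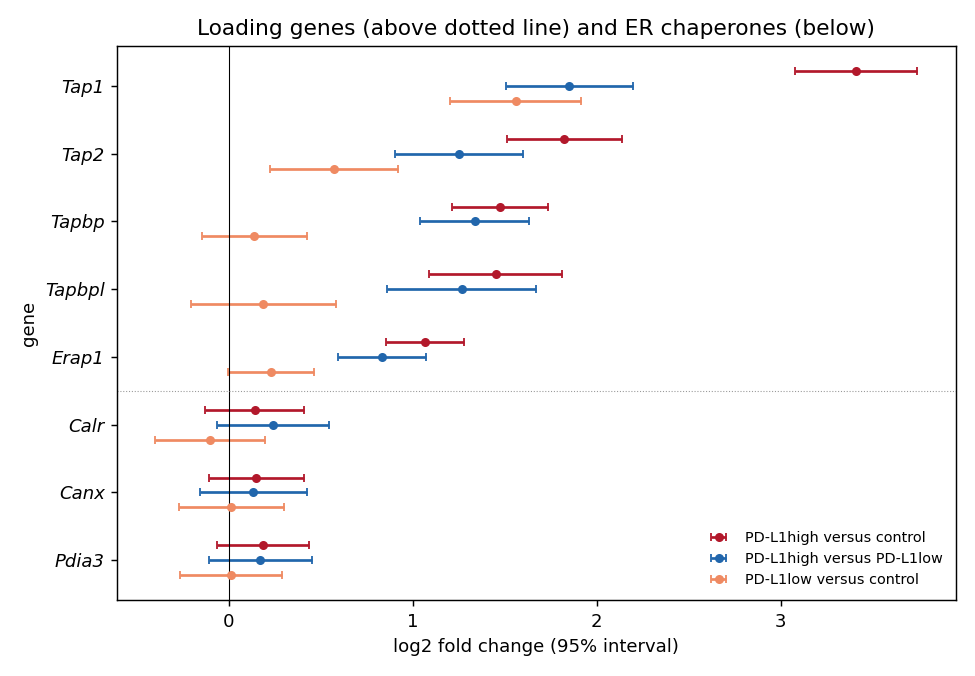
Log2 fold changes of the 8 genes with 95% intervals from edgeR, for PD-L1high versus control (red), PD-L1high versus PD-L1low (blue) and PD-L1low versus control (orange). The loading genes above the dotted line lay at 1.07 to 3.41 in PD-L1high versus control, and the chaperones below it at 0.14 to 0.18 with intervals that include 0.

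The balance among the 8 transcripts differed between the groups. On the TPM scale, Tap1 to Tap2 was 2.27, 2.75, 2.52 and 3.33 in PD-L1high replicates 1 to 4, 2.19, 1.56 and 1.52 in PD-L1low replicates 2 to 4, and 0.699, 0.907, 0.486 and 1.31 in control replicates 1 to 4. The TAP subunits act as a pair of equal partners, and their transcripts stood on opposite sides of equality in PD-L1high and in most control libraries, with Tap2 the more abundant in 3 of 4 control libraries and Tap1 in all 7 others and in control replicate 4. Tapbp to Tap1 fell to 5.57 ± 1.03 in PD-L1high and 8.23 ± 0.95 in PD-L1low cells, against 21.5 ± 5.45 in control cells (SD, n = 4, 3 and 4). These ratios are given as descriptions, without a test, and the effective length of Tap2 varied most in control cells, between 1857 and 2985 bases.

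Calr to Tapbp was 1.37 ± 0.40 in PD-L1high cells, 3.39 ± 0.98 in PD-L1low cells and 3.32 ± 0.82 in control cells, and Pdia3 to Tapbp was 1.68 ± 0.33, 4.31 ± 1.70 and 3.99 ± 0.68 in the same groups. By contrast, ratios within the chaperones were level: Canx to Calr averaged 0.971 ± 0.118 in PD-L1high cells, 0.978 ± 0.071 in PD-L1low cells and 0.975 ± 0.142 in control cells. Tapbp to Tapbpl, both of the tapasin family, averaged 6.60 ± 1.03 in PD-L1high cells, 5.79 ± 0.62 in PD-L1low cells and 6.75 ± 1.66 in control cells. The summed TPM of the 5 loading genes divided by that of the 3 chaperones was 0.555, 0.430, 0.379 and 0.315 in PD-L1high cells, 0.202, 0.215 and 0.140 in PD-L1low cells and 0.207, 0.132, 0.188 and 0.133 in control cells. The PD-L1high libraries were therefore above all others in this balance, and PD-L1low and control libraries overlapped.

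**Figure D4:**
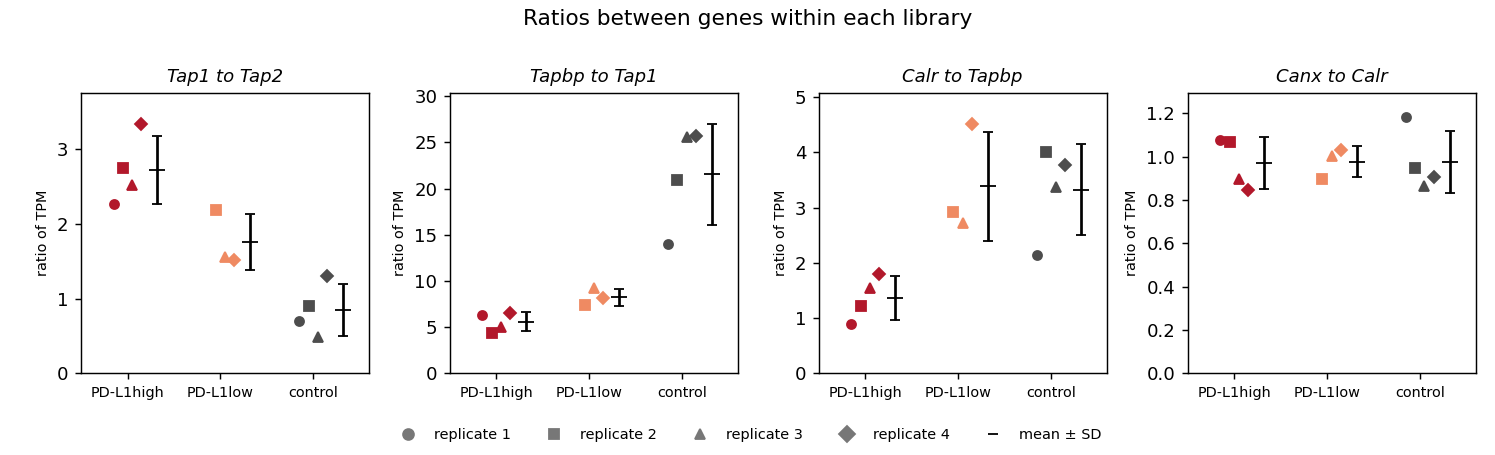
Ratios of TPM between genes within each library (vertical axes, from 0), 1 symbol per replicate number with the mean and SD of each group, in PD-L1high, PD-L1low and control cells. Tap1 to Tap2 averaged 2.72, 1.76 and 0.850 in these groups, Tapbp to Tap1 5.57, 8.23 and 21.5, and Calr to Tapbp 1.37, 3.39 and 3.32, while Canx to Calr lay close to 1 in each.

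Other genes of the class I pathway fell into lists called in full and lists with no call, with regulators of both kinds. The class I molecules themselves, the heavy chains H2-K1 and H2-D1 and the light chain B2m, were 3 of 3 called higher in PD-L1high than in control cells. B2m had 1041, 739, 986 and 929.9 CPM in PD-L1high cells, against 132, 196 and 169.9 CPM in PD-L1low cells and 187, 114, 91.2 and 106 CPM in control cells, a log2 fold change of 2.92 for PD-L1high over control. H2-K1 and H2-D1 changed by 1.35 and 1.31, close to Tapbp and Tapbpl. H2-K1 and H2-D1 belong to a family of near-identical genes, and the split of reads among them is uncertain. All 3 were also called higher in PD-L1high than in PD-L1low cells, and 0 of 3 between PD-L1low and control cells by edgeR, DESeq2 or limma-voom, with B2m at 0.58 and an unadjusted p of 0.00319.

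The immunoproteasome, the IFNγ-induced form of the proteasome that cuts peptides suited to class I, rose as a whole. All 5 immunoproteasome genes were called higher in PD-L1high than in control cells: the catalytic subunits Psmb9, Psmb8 and Psmb10 by 2.93, 2.81 and 2.24, and the PA28 activator subunits Psme1 and Psme2 by 1.57 and 1.37 on the log2 scale. Psmb8 had 86.3, 89.2, 95.1 and 59.4 CPM in PD-L1high cells, against 23.3, 18.3 and 19.7 CPM in PD-L1low cells and 11.6, 15.1, 8.82 and 11.9 CPM in control cells. Of the standard catalytic subunits that they replace, Psmb5, Psmb6 and Psmb7, 0 of 3 were called in PD-L1high over control cells. Their log2 fold changes there were 0.35, 0.20 and 0.06, with 0 unadjusted p under 0.05 and 0 calls by DESeq2 or limma-voom. Between PD-L1high and PD-L1low cells they stood at 0.50, 0.48 and 0.17, again with 0 calls by any of these tools. There Psmb6 had an unadjusted p of 0.00706 and an adjusted p of 0.336 in edgeR. All 5 immunoproteasome genes were called higher in PD-L1high than in PD-L1low cells too, with Psme2 losing its call without PD-L1high replicate 3 (adjusted p = 0.0552) or all libraries of replicate 3 (0.0737), and Psme1 on log2(TPM + 0.1) under limma (0.0525). Between PD-L1low and control cells edgeR called 0 of 5. The unadjusted p was under 0.05 for 4 of them, and DESeq2 made 2 calls and limma-voom 1.

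The 8 cytosolic peptidases, which cut or destroy peptides before transport, gave 0 calls by edgeR, DESeq2 or limma-voom in the 3 comparisons and 0 unadjusted p under 0.05. The 3 most abundant, Nrd1, Npepps and Tpp2, had log2 fold changes of 0.14, 0.00212 and 0.01 in PD-L1high over control cells. Lnpep, an endosomal aminopeptidase related to Erap1, averaged 427 CPM in PD-L1high cells, 442 in PD-L1low cells and 431 in control cells, a log2 fold change of -0.01 for PD-L1high over control (95% interval -0.21 to 0.20). Abcb9, a lysosomal transporter related to TAP, stood at -0.42 (unadjusted p = 0.0385, adjusted p = 0.614). Neither relative thus passed the test, and their upper bounds of 0.20 and -0.03 on the log2 scale lie below the lower bounds of Erap1 (0.85), Tap1 (3.08) and Tap2 (1.51).

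Among regulators of class I genes, Nlrc5 and Irf1 were called higher in PD-L1high than in control cells, by 3.99 (adjusted p = 4.72e-04) and 1.80 (adjusted p = 7.19e-07) on the log2 scale. Nlrc5, the class I transactivator, had 46.3, 44.0, 41.5 and 34.1 CPM in PD-L1high cells, against 22.4, 14.2 and 16.6 CPM in PD-L1low cells and 8.45, 2.10, 1.39 and 1.16 CPM in control cells. Its groups did not overlap, and control replicate 1 was again high for a control library. The log2 fold change was 4.69 without control replicate 1 and also 4.69 without PD-L1high replicate 1. In PD-L1low over control cells Nlrc5 stood at 3.02 with an adjusted p of 0.0505, and Irf1 at 0.63 with an adjusted p of 0.329. Irf1 was called higher in PD-L1high than in PD-L1low cells, by 1.17, and Nlrc5 was not (0.97, adjusted p = 0.503). Irf2, Rfx5 and Rfxap, which passed in no comparison, include RFX subunits that bind class I promoters in resting cells.

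No gene of the ER lists passed the test. Counting Calr, Canx and Pdia3, the calnexin cycle, other ER chaperones and oxidoreductases, and ER export factors of class I, 32 genes were tested in each comparison and 0 were called by edgeR, DESeq2 or limma-voom. At an unadjusted p under 0.05, edgeR had 0 of 32 in PD-L1high versus control, 1 in PD-L1low versus control and 0 in PD-L1high versus PD-L1low. The directions were shared, however, by the 15 other ER chaperones and oxidoreductases. All 15 had a positive log2 fold change in PD-L1high versus PD-L1low cells (median 0.17). In PD-L1high versus control 13 were positive (median 0.07), and in PD-L1low versus control 1 (median -0.10). These small shifts of the list were not tested as a set. Clgn, of the calnexin cycle, did not pass the filter on low counts. Hspa5 (BiP), the main Hsp70 of the ER, averaged 1158 ± 92.2 CPM in PD-L1high cells, 1139.7 ± 186 in PD-L1low cells and 1104 ± 283 in control cells, a log2 fold change of 0.10 for PD-L1high over control (95% interval -0.17 to 0.37). Hsp90b1 (GRP94) stood at 0.07, Ero1lb, the beta cell form of an ER oxidase, at -0.09, and Uggt1, which returns misfolded glycoproteins to calnexin, at 0.15.

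**Figure D5:**
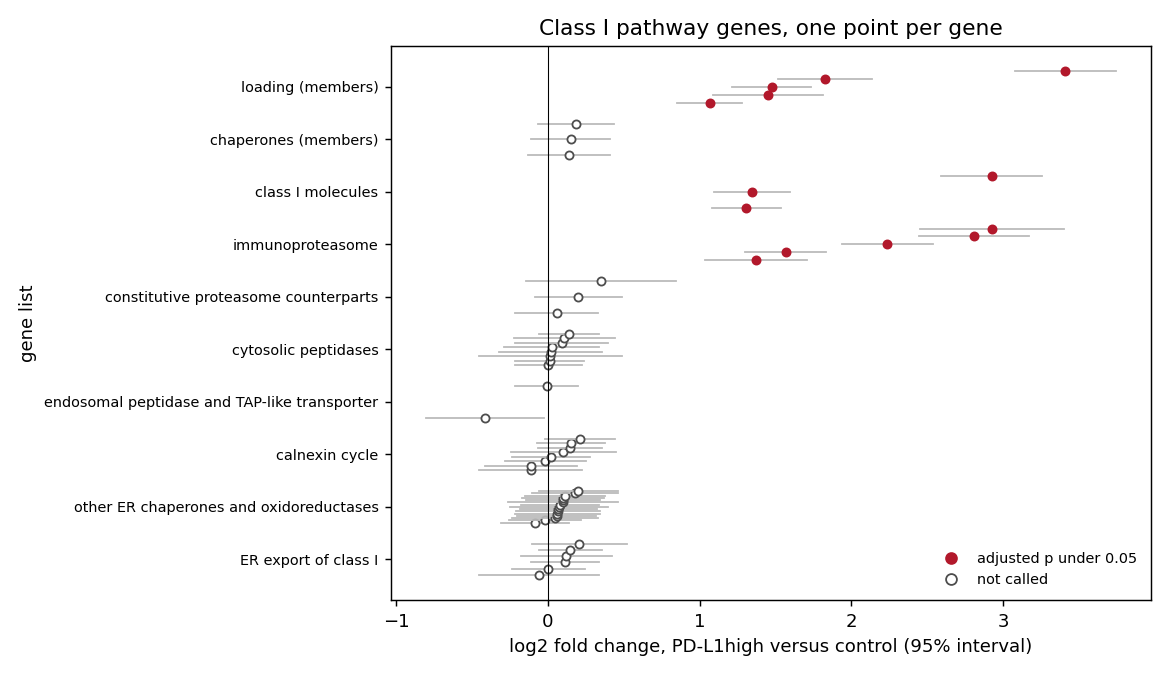
Log2 fold changes of PD-L1high versus control for the class I pathway lists, 1 point per gene with its 95% interval from edgeR, filled where the adjusted p is under 0.05. Filled points were the 5 loading genes, 3 of 3 class I molecules and 5 of 5 immunoproteasome genes, and no gene of the ER lists was called.

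Neighbouring genes showed how far the change extended along chromosome 17. In the block Psmb9, Tap1, Psmb8 and Tap2, the log2 fold changes of PD-L1high over control cells were 2.93, 3.41, 2.81 and 1.82, all called. Gm15821, a transcript on the opposite strand within Tap2, had 0 to 36 counts per library and a value of 0.87 (SE 0.88, adjusted p = 0.852). The class II genes nearby were sparse or absent: H2-DMb2 and H2-Ob had 0 counts in every library and were not tested, H2-DMb1 had 0 to 29 counts per library, H2-Ab1 0 to 22 and H2-Aa 0 to 128. The 3 that could be tested were called higher in PD-L1high than in control cells (adjusted p = 0.0235, 0.0398 and 0.00609 in that order), and no fold change is given at such counts. These calls were not recomputed under the alternatives. Around Tapbp, elsewhere in the same region, the neighbours Daxx, Zbtb22, Rgl2 and Pfdn6 were at 0.44, 0.07, -0.74 and -0.05 with adjusted p of 0.530, 0.968, 0.437 and 0.982, and none was called.

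Over the 11 libraries, the genes whose log2 CPM followed Tap1 most closely included Irgm1 (Pearson r = 0.998), Gbp7 (0.994), Irgm2 (0.992) and F830016B08Rik (0.990). Irgm1, Irgm2 and Gbp7 encode IFNγ-inducible GTPases. The other loading genes came further down, with r of 0.944 for Erap1, 0.936 for Tap2, 0.918 for Tapbp and 0.873 for Tapbpl. The 5 genes closest to Pdia3 were Usf2, Lars, Fam76a, Tmem167b and Smu1, at 0.972 to 0.993. Canx reached 0.961 with Pdia3, 12th among all genes, and Calr 0.836, while Tap1 was at 0.217. These values describe the libraries, which share groups and replicate numbers, and they carry no p.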

How the data were processed

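RNA-seq of sorted beta cells was used from 4 PD-L1high, 3 PD-L1low and 4 control libraries, grouped by sample titles. The authors made random-primed libraries with the Ovation Solo kit, aligned reads with STAR 2.5.2b to GRCm38.p6 and quantified genes with RSEM. RSEM's version, and whether molecular identifiers were used, are not given in the sources used here. Expected counts (unnormalized RSEM estimates) and TPM (RSEM values scaled for effective length and depth) were deposited by the authors, 1 file per library. RSEM divides reads that fit several genes between them.

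Rounding the expected counts moved library totals by no more than 0.000388%. Genes were filtered with edgeR's filterByExpr (minimum count 10), which left 16252, and fitted with TMM scaling and robust quasi-likelihood in edgeR 4.0.16 (R 4.3.3), with condition and replicate number as terms over all 11 libraries. The replicate number stands for the batch in the authors' design formula, which their methods do not describe further. Deviations from the group means correlated in every PD-L1high and PD-L1low pair with the same number (r = 0.347, 0.326 and 0.194). Pairs of these groups with different numbers had r of -0.342 to 0.140, and such pairs over all groups reached 0.335. With so few pairs, the numbers may pair these groups but this is not established. P-values were adjusted by Benjamini-Hochberg over all tested genes, with a call at an adjusted p under 0.05. DESeq2 1.42.0, limma 3.58.1 (voom, and log2 of TPM plus 1 or 0.1), other scalings and filters, a fit without the replicate term, fits of only the groups compared, a threshold of 0.01 and the omission of libraries were alternatives. The fit was tested on simulated counts, and no pair of replicates was close enough to be a repeated library. Depth was 10422018 to 15810769 counts, and 3 or 4 libraries per group limit the precision. Symbols and positions are from GENCODE M21 on GRCm38 (55141 of 55487 genes matched), an earlier release than the authors used, and promoter sequences from RefSeq.

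The 8 genes and the other lists were chosen with earlier results of these data known. Named genes were the 8, the called genes of each list with up to 3 of the most abundant uncalled ones, the 5 genes most correlated with Tap1 and with Pdia3, and neighbours of Tap1, Tap2 and Tapbp. Of these, 1 gene is not reported here, and counts over the regulators are left out with it.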

Additional observations from a re-analysis of the deposited data

Results flagged for a closer look

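Of 16 groups of 4 libraries tested (8 genes in PD-L1high and in control cells), 2 held a library far from the others by Dixon's criterion, where chance flags about 1 in 20 groups. Tap1 was at 16.6 CPM in control replicate 1, against 10.3 CPM in the next control library. That library also had the largest mitochondrial share (13.3%), and without it the log2 fold change of Tap1 was 3.60 in PD-L1high and 1.66 in PD-L1low over control cells. Tap2 was at 29.1 CPM in PD-L1high replicate 4, against 50.6 CPM in the next PD-L1high library.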

How the results depend on the processing

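Each of the 24 results on a single gene (8 genes in 3 comparisons) was recomputed under 28 alternatives. Of the 11 that were called, 8 kept their call and direction under all of them, among them the 5 loading genes in PD-L1high versus control and Tap1 in each comparison. The exceptions were in PD-L1high versus PD-L1low. With limma on log2(TPM + 0.1) only 2 of the 5 loading genes stayed called, with adjusted p of 0.0532 for Tap2, 0.0710 for Tapbpl and 0.585 for Erap1, and leaving out libraries gave 4 to 5 called. No sign of a called value turned. Of the 13 that were not called, 4 changed sign. Calr was at 0.0076 in PD-L1low versus control without the replicate block and at 0.012 with DESeq2 and no replicate block. With only the 2 groups compared, Canx was at -0.018 and Pdia3 at -0.016 in PD-L1low versus control. Leaving out libraries gave -0.014 to 0.27 for Calr in PD-L1high versus control and, in PD-L1low versus control, -0.18 to 0.018 for Calr, -0.090 to 0.19 for Canx and -0.080 to 0.17 for Pdia3.

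Counts over all genes moved more. In PD-L1high versus control, 161 genes were called, against 328 with no filter and 249 each with DESeq2 and limma-voom, and 93 (without replicate 3) to 269 (without control replicate 2) when libraries were left out. In PD-L1low versus control, 13 were called, against 20 scaled by library size only, 91 with no filter, 47 with DESeq2, 22 with DESeq2 and no replicate block, 23 with limma-voom, 22 with limma on log2(TPM + 0.1), 33 with only the 2 groups compared, and 8 (without PD-L1low replicate 2) to 43 (without control replicate 1). In PD-L1high versus PD-L1low, 119 were called, against 354 with no filter, 202 with DESeq2, 180 with limma-voom, 76 at an adjusted p under 0.01, and 64 (without PD-L1high replicate 3) to 143 (without control replicate 1). The cause was not tested.

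Libraries with the same replicate number had correlated deviations in every PD-L1high and PD-L1low pair, but with control only in some replicates. With control, r was 0.517, 0.323, -0.056 and -0.057 for PD-L1high and -0.36, 0.247 and 0.0885 for PD-L1low cells. Without the replicate block, 127, 12 and 88 genes were called in the 3 comparisons, and the same number of the 8 genes (5, 1 and 5).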
